A study of Mus musculus with 4 samples.

Results

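Clustered replication-dependent histone genes supply the histones that package newly made DNA. They were taken as all rows of the deposited expression table whose older symbol starts with Hist1h, Hist2h, Hist3h or Hist4h, the names of the 4 mouse histone gene clusters. The rule found 68 of 25630 rows. By class, 6 rows were linker histone H1, 19 were H2A, 18 H2B, 12 H3 and 13 H4. By cluster, 54 carried the name Hist1 (chromosome 13), 10 Hist2 (chromosome 3), 3 Hist3 (chromosome 11) and 1 Hist4 (chromosome 6). The series measured RNA in BEKO, a mouse thymic lymphoma cell line whose genotype is labelled WT, with 2 libraries from cells kept at low density and 2 from cells kept at high density. No treatment, time or cell number behind the words low and high was given, and no label says whether replicates came from separate cultures, so p-values set the difference against library-to-library spread alone, and that spread may be technical. BEKO is a single tumour line, and no normal thymocytes were measured here.

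Histones H2A, H2B, H3 and H4 form the core of the nucleosome, and H1 binds the DNA that enters and leaves it. Most clustered histone genes are switched on as cells copy their DNA, and their messages are the known exception to polyadenylation: they end in a short stem-loop that the stem-loop binding protein SLBP holds, in place of a poly(A) tail. When DNA synthesis stops, these messages are rapidly degraded. A minority of clustered genes, among them Hist1h1c, Hist1h2bc, Hist2h2be, Hist4h4, Hist3h2a and Hist3h2ba, are known also to give longer, polyadenylated transcripts, and these 6 are called the poly(A) list here.

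The stem-loop is the element that sets these messages apart, so its forms are shown first. It was searched as a 16-base pattern (GG, any 2 bases, CTTTT, any base, AG, any 2 bases, CC) on the transcript strand of GENCODE M21 gene models (GRCm38). It was found in 44 of 66 clustered histone rows with a protein-coding model (66.7%) and in 72 of 21901 genes with such a model (0.329%). The models of Hist1h2ah and Hist2h2bb, which both fell at high density, held no match and are not shown. The sequences below are those of members with a match that the results turn on. They have the 6-base stem arms in capitals, the 4-base loop between them and 5 bases on either side.
Hist1h1c: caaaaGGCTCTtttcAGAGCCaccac
Hist2h2ac: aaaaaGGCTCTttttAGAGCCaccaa
Hist1h2ag: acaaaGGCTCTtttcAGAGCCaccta
Hist1h2bm: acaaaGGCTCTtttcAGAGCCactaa
Hist3h2ba: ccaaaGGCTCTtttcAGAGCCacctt
Hist1h3c: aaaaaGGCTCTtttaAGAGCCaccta
Hist1h4i: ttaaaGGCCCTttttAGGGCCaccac
Hist1h4b: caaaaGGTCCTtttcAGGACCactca
The arms were complementary in each of these 8 genes. The form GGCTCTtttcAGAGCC was the commonest, in 26 members of H1, H2A, H2B and H3. Members of H4 carried other arms: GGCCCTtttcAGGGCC in 7 of them, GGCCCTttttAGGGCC in Hist1h4i and Hist2h4, and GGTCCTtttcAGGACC in Hist1h4b and Hist1h4j. Among genes outside the clusters, H2afx, the gene of the DNA damage histone H2A.X, also held the pattern. A gene model without a match says only that these letters are not in that model, and many such models end at or near the stop codon.

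Values are TPM, transcript abundances scaled to a fixed total, which divide reads by transcript length. Levels of different genes within a library can be compared only as far as those lengths and the assigned reads are right. The 68 members together took 0.154% of all TPM in both low density libraries, and 0.125% and 0.117% in the high density libraries. Their summed level was 1542 and 1544 TPM at low density and 1249 and 1170 TPM at high density. Both high density libraries lay below both low density ones, at a ratio of means of 0.784. An exact permutation test of a sum, 2 libraries against 2, cannot go below p = 0.333, so sums are given as values with no test. In bulk RNA, fewer cells making histone mRNA and less histone mRNA per cell cannot be told apart.

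**Figure D1:**
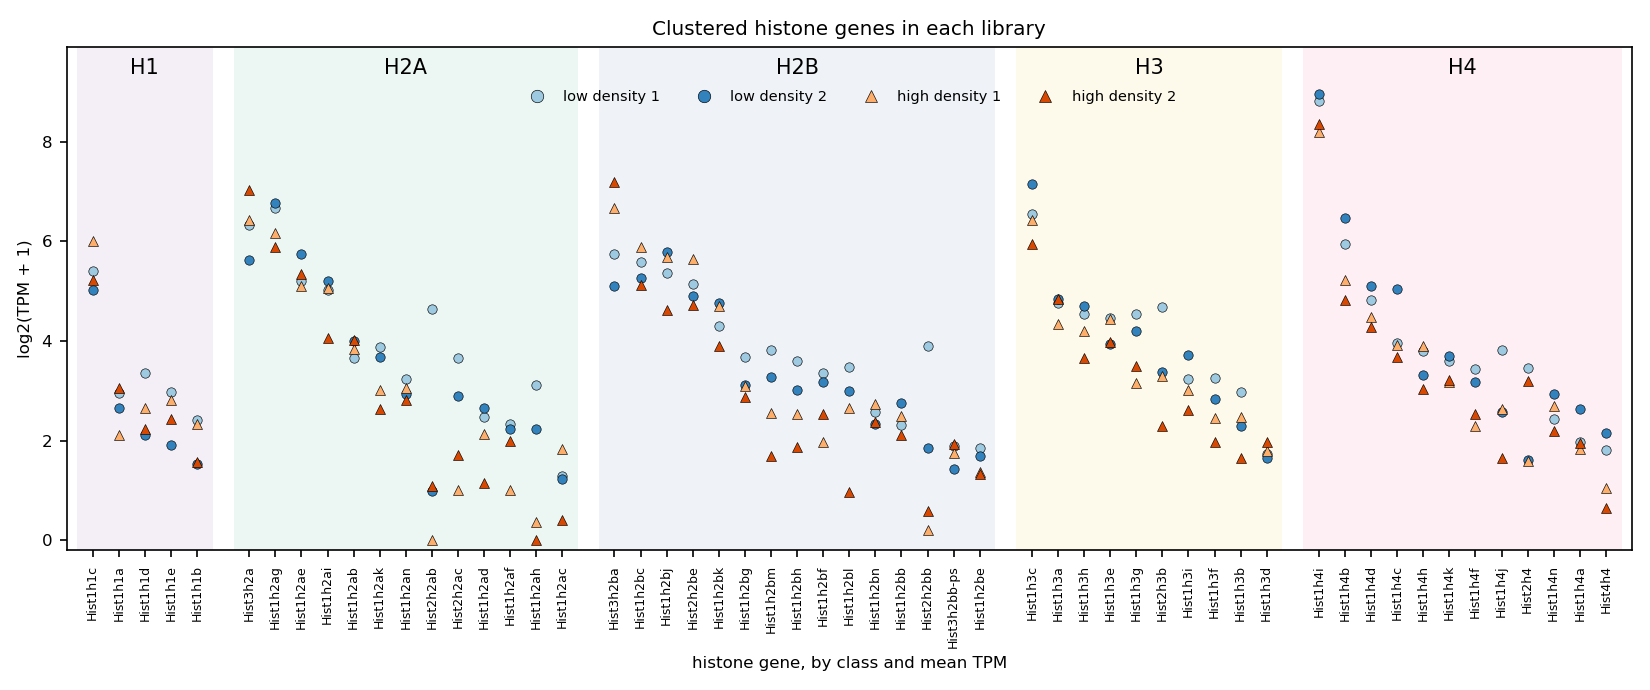
Level of each of the 55 tested clustered histone genes as log2(TPM + 1), by class and, within a class, by mean TPM. Circles are the 2 low density libraries and triangles the 2 high density libraries. Hist1h4i stands above all others, and in Hist3h2ba both triangles lie above both circles.

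Of the 68 members, 55 reached a mean level of 1 TPM and were tested with limma on log2(TPM + 1). Of the other 13, the 8 rows Hist1h1t, Hist1h2aa, Hist1h2ao, Hist1h2ap, Hist1h4m, Hist2h2aa1, Hist2h3c1 and Hist2h3c2 were listed at 0 in every library. A listed 0 need not mean a silent gene where copies share its sequence, as given below. The remaining 5 were Hist1h2al, Hist1h2ba, Hist1h2bp, Hist1h2bq and Hist2h2aa2, with no value above the 2.00 TPM of Hist1h2ba in low density library 1. At an adjusted p under 0.05, 5 of the 55 tested members fell at high density (9.09%) and 1 rose (1.82%). Over all 10936 rows tested, 6.68% were called, 2.11% lower and 4.57% higher. A log2 fold change below 0 was found in 44 of the 55 tested members (80%) and in 40.3% of all tested rows. The median was -0.46 over the tested members and 0.12 over all tested rows. Both high density libraries lay below both low density libraries in 27 members, against 20.0% of all tested rows, and above them in 3 members, against 34.7% of all tested rows.

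The 5 members that fell were Hist1h2ah and Hist2h2ac of class H2A, Hist2h2bb and Hist1h2bm of class H2B, and Hist1h4b of class H4. The member that rose was Hist3h2ba of class H2B. These calls rest on few libraries. A fit that leaves out 1 library has 1 in that arm and 1 residual degree of freedom, so its spread comes from the other density alone and the lone library is assumed to vary alike. Without low density library 1, 1 member was called lower (Hist1h2ah) and 1 higher, and without low density library 2, 4 were called lower and 0 higher. Leaving out either high density library raised the number of calls among the members and over all tested rows alike, so the rise is not particular to histone genes. With high density library 1 left out, the median log2 fold change was -0.62 over the members and 0.26 over all rows tested in that fit. With high density library 2 left out instead, these medians were -0.43 and -0.026. With no filter on low values 0 members were called, with 13 at an unadjusted p under 0.05, and with median centring 3 were called lower and 1 higher. Low density library 1 stood apart in other rows too. It held the fibroblast collagen genes Col1a1 at 30.3 TPM and Col1a2 at 14.5 TPM, while in the other 3 libraries neither exceeded 0.300 TPM, and the part of this in the histone values was not tested.

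**Figure D2:**
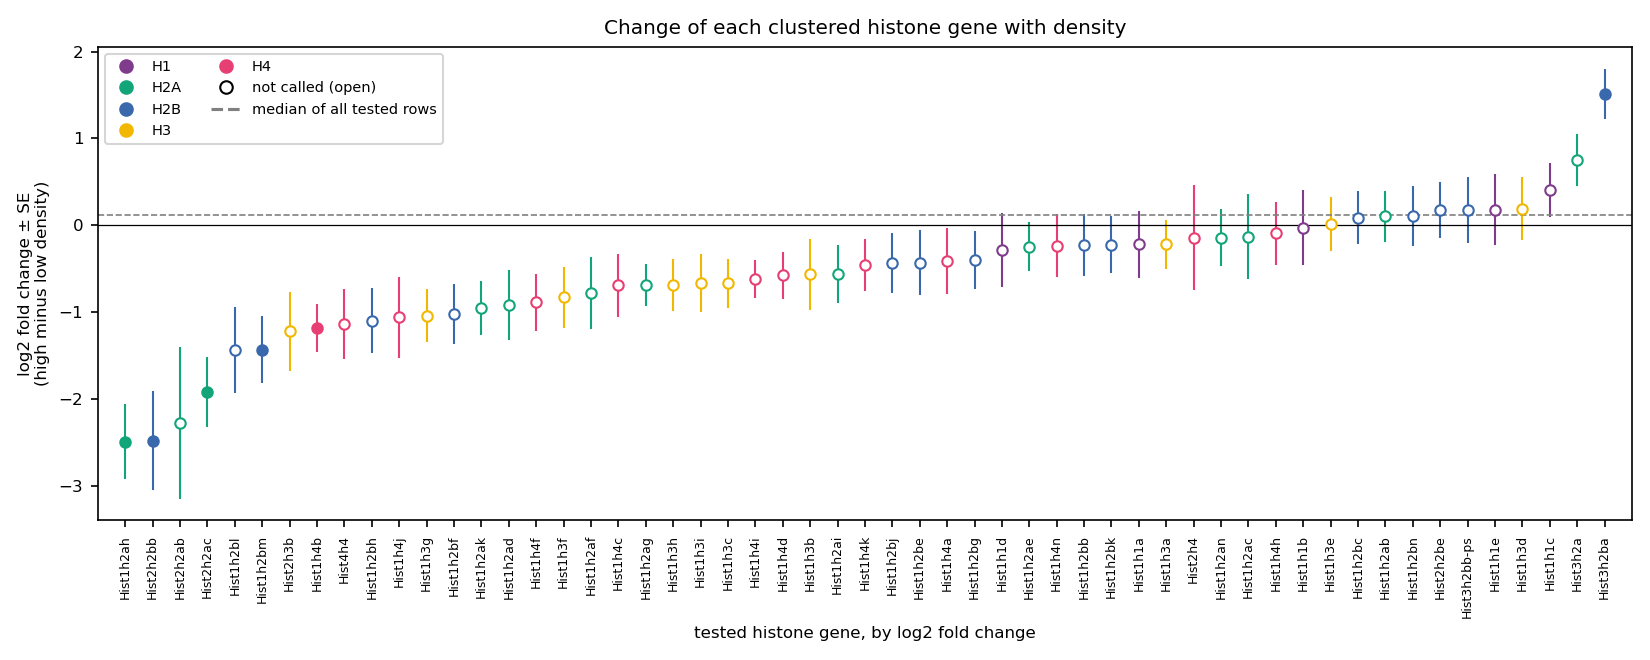
Log2 fold change, high minus low density, on the log2(TPM + 1) scale for the 55 tested members, in order of size, with bars of 1 standard error from limma. Filled points are the 6 called members, 5 below 0 and Hist3h2ba above it, and the dashed line is the median of all tested rows at 0.12.

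Linker histone H1 had 5 tested members, each a subtype of its own, and none was called. Hist1h1c, the gene of the subtype H1.2, was the most abundant, with 69.3% of the class's TPM. Its level was 41.3 and 31.7 TPM at low density and 63.7 and 36.5 TPM at high density. The ranges overlapped, and the log2 fold change of 0.41 ± 0.31 (SE) did not pass the test (limma adjusted p = 0.46). Hist1h1a stood at 6.76 and 5.34 TPM at low density and 3.36 and 7.30 TPM at high density. Hist1h1d stood at 9.23 and 3.35 TPM and then at 5.35 and 3.72 TPM, with the lowest log2 fold change of the class, -0.29. Hist1h1e (log2 fold change 0.18, and -0.0059 when each library was centred on its median) and Hist1h1b (-0.03) lay nearest to 0. All 5 had libraries of the groups interleaved. The summed H1 level was 68.5 and 45.1 TPM at low density and 82.5 and 53.9 TPM at high density. Its ratio of 1.20 became 0.996 when low density library 2 was left out and 0.949 when high density library 1 was, so no direction is given for the class.

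Class H2A had 13 tested members, of which 2 fell, none rose and 11 did not pass the test. The share that fell was 15.4%, against 2.11% of all tested rows. The median log2 fold change was -0.69, or -0.44 without high density library 2. H2A forms a dimer with H2B on the outer side of the nucleosome core. Hist1h2ah (now named H2ac12) was listed at 7.69 and 3.74 TPM at low density and at 0.300 and 0 TPM at high density. It was low at both densities and close to nothing in both high density libraries, which lay below both low density ones. Its log2 fold change was -2.49 ± 0.43 (SE; limma adjusted p = 0.00644, n = 2 per group). It was also called in each of the 4 fits that leave out 1 library, with adjusted p between 0.000114 and 0.0471, which rest on the spread of the other density alone.

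Hist2h2ac (now H2ac20) stood at 11.6 and 6.49 TPM at low density and at 1.00 and 2.29 TPM at high density. Both high density libraries were well below both low density ones. Hist2h2ac fell by 1.92 ± 0.40 (SE) on the log2 scale (limma adjusted p = 0.0171), and was not called without low density library 1 (adjusted p = 0.247). The more abundant H2A members moved less. Hist1h2ag, with 28.9% of the class, stood at 100.4 and 109 TPM at low density and 71.4 and 58.1 TPM at high density. Its groups did not overlap either, but the log2 fold change of -0.69 ± 0.24 did not pass the test (limma adjusted p = 0.112).

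Hist3h2a of the Hist3 cluster, the most abundant H2A row with 29.2% of the class, went the other way: 79.0 and 48.5 TPM at low density against 84.6 and 130 TPM at high density. Both high density libraries were above both low density ones, at 0.75 ± 0.30 (SE) on the log2 scale, which did not pass the test (limma adjusted p = 0.161). Hist1h2ae, the third most abundant, stood at 36.0 and 52.5 TPM at low density and 33.5 and 39.7 TPM at high density. Its groups overlapped (log2 fold change -0.25). The summed H2A level was 335 and 301 TPM at low density and 258 and 278 TPM at high density. Without Hist3h2a these sums were 256, 252, 173 and 148 TPM in the same order. The ratio of high to low density was thus 0.843 with Hist3h2a and 0.632 without it.

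Class H2B held the only member that rose and 2 of those that fell among its 15 tested members. These were 6.67% and 13.3% of the 15, against 4.57% and 2.11% of all tested rows. The median log2 fold change was -0.40, or -0.05 without high density library 2 and -0.22 without low density library 2. Hist3h2ba (now H2bu2) stood at 52.5 and 33.3 TPM at low density and at 100.5 and 146 TPM at high density. Both high density libraries lay above both low density libraries, by a ratio of means of 2.87. Hist3h2ba rose by 1.51 ± 0.29 (SE) on the log2(TPM + 1) scale (limma adjusted p = 0.0116). This call was lost without low density library 2, where the log2 fold change was 1.19 and the adjusted p = 0.316. Hist3h2ba made up 29.8% of the class's TPM.

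Hist2h2bb stood at 13.9 and 2.64 TPM at low density and at 0.159 and 0.501 TPM at high density. Its low density libraries were far apart, but neither reached down to the high density ones. Hist2h2bb fell by 2.48 ± 0.57 (SE; limma adjusted p = 0.0251). Without low density library 1, its log2 fold change was -1.46 and its adjusted p = 0.307. Hist1h2bm stood at 13.2 and 8.68 TPM at low density and at 4.86 and 2.22 TPM at high density, again with no overlap. Hist1h2bm fell by 1.43 ± 0.39 (SE; limma adjusted p = 0.0482), and was not called without low density library 1 (adjusted p = 0.51) or 2 (adjusted p = 0.236).

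The other abundant H2B genes overlapped between densities. Hist1h2bc stood at 46.9 and 37.3 TPM at low density and 58.3 and 34.0 TPM at high density, with a log2 fold change of 0.09 that turned to -0.10 with median centring and to -0.087 with quantile normalisation. Hist1h2bj stood at 40.4 and 54.6 TPM and then at 50.2 and 23.6 TPM. The H2B sum was 280 and 236 TPM at low density and 325 and 273 TPM at high density, so the groups overlapped. Without Hist3h2ba the sums were 228, 202, 224 and 127 TPM, and they overlapped too. The ratio of the class's means was 1.16 with Hist3h2ba and 0.816 without it. The latter rests on high density library 2, without which it was 1.04, so no direction is given for the rest of the class.

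Class H3 had 10 tested members and no call. The median log2 fold change was -0.67, or -0.44 without high density library 2. Below 0 lay 8 of the 10 (80%), against 40.3% of all tested rows. H3 carries the long N-terminal tail that bears many of the chromatin marks. Hist1h3c, with 46.6% of the class, stood at 93.2 and 141 TPM at low density and 85.5 and 60.4 TPM at high density. Both low density libraries were higher, low density library 1 only narrowly, and the log2 fold change of -0.67 did not pass the test (limma adjusted p = 0.181). Hist2h3b had the lowest log2 fold change of the class, -1.22 (limma adjusted p = 0.132), at 24.6 and 9.36 TPM at low density and 8.89 and 3.94 TPM at high density. The high density values were again below both others, with low density library 1 far above the rest.

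Hist1h3a stood at 26.3 and 27.8 TPM at low density and 19.3 and 27.6 TPM at high density, overlapping. Hist1h3h stood at 22.3 and 25.2 TPM and then at 17.5 and 11.6 TPM, without overlap (log2 fold change -0.69, limma adjusted p = 0.189). Hist1h3d, the member of the class with the highest log2 fold change, 0.19, was weak, at 2.34 and 2.15 TPM and then at 2.49 and 2.94 TPM. The H3 sum was 236 and 260 TPM at low density and 179 and 142 TPM at high density. The groups did not overlap, and the ratio of means was 0.646, or 0.667 without Hist1h3c.

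Class H4 had 12 tested members. All 12 log2 fold changes were below 0, against 40.3% of all tested rows, with a median of -0.60. Both high density libraries lay below both low density ones in 8 of the 12 (66.7%), against 20.0% of all tested rows. Without low density library 1 or without high density library 2, 10 of the 12 lay below 0. Of these 12 members 1 fell (8.33%, against 2.11% of all tested rows) and 11 did not pass the test. Hist1h4i (now H4c9) alone carried 72.9% of the class and 28.5% of all clustered histone TPM. It stood at 452 and 498 TPM at low density and 291 and 328 TPM at high density. The densities were well apart, yet its log2 fold change of -0.62 ± 0.22 (SE) did not pass the test over all rows (limma adjusted p = 0.119).

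Hist1h4b was the second most abundant H4 gene, at 60.9 and 87.7 TPM at low density and 36.4 and 27.5 TPM at high density. It was lower in both high density libraries than in either low density library. Hist1h4b fell by 1.18 ± 0.28 (SE; limma adjusted p = 0.0284), and the call was lost without low density library 1 (adjusted p = 0.106) or 2 (adjusted p = 0.732). Hist1h4d stood at 27.2 and 33.4 TPM and then at 21.5 and 18.4 TPM (log2 fold change -0.58, limma adjusted p = 0.232). Hist1h4h stood nearest to 0, at -0.09. The H4 sum was 622 and 702 TPM at low density and 406 and 423 TPM at high density. The ratio of means, 0.626, was not set by Hist1h4i alone: without it the sums were 170, 204, 114 and 95.3 TPM, at a ratio of 0.561.

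Class shares of the clustered histone TPM also differed between libraries. H4 held 40.3% and 45.5% of it at low density and 32.5% and 36.1% at high density. H2B held 18.2% and 15.3% at low density and 26.0% and 23.3% at high density. H4 was the largest class in each of the 4 libraries.

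**Figure D3:**
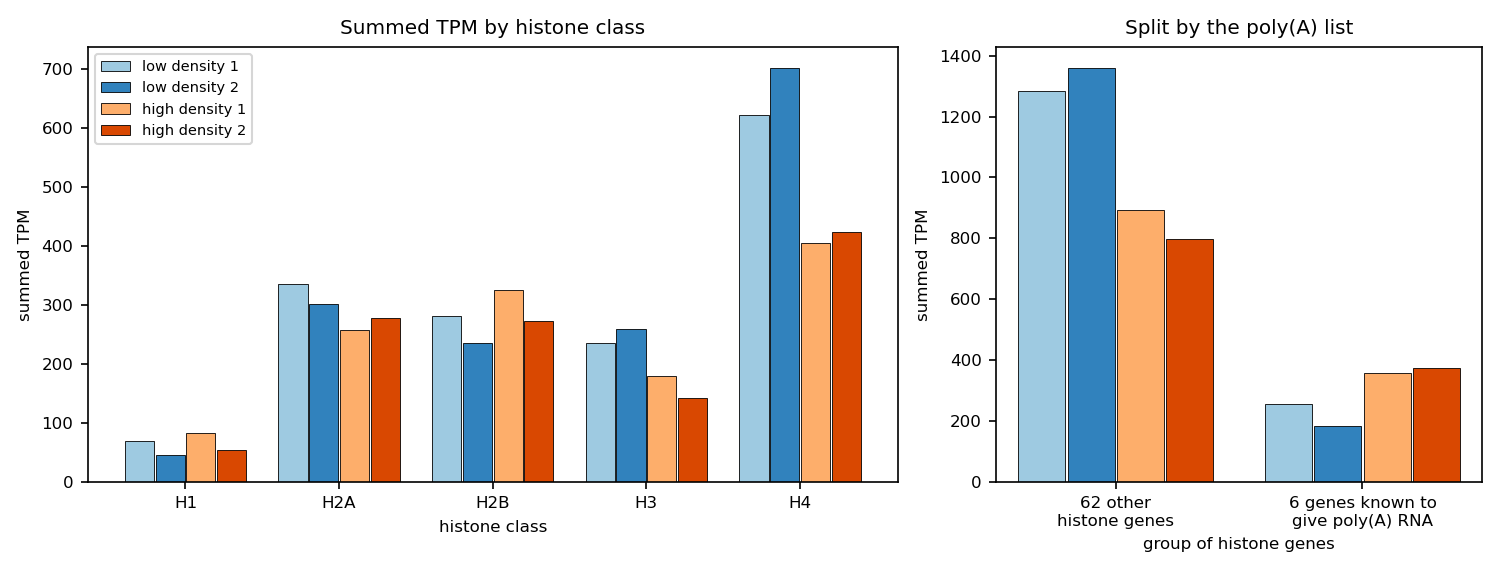
Summed TPM in each of the 4 libraries, by histone class (left) and for the 62 clustered histone genes outside the poly(A) list and the 6 genes on it (right). Bars are single libraries and start at 0. The sums of H3, H4 and the 62 genes are lower in both high density libraries. The sum of the 6 genes of the poly(A) list is higher in both, mostly through Hist3h2a and Hist3h2ba.

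Members on the poly(A) list were summed apart from the rest. The summed level of the 6 genes on the poly(A) list was 257 and 183 TPM at low density and 358 and 373 TPM at high density. The 62 other members summed to 1285 and 1361 TPM at low density and 892 and 797 TPM at high density. Neither set overlapped between densities, and the ratios of means were 1.66 and 0.638. The higher sum of the listed genes rests mostly on 2 genes of the Hist3 cluster. Hist3h2a had means of 63.8 and 107 TPM at low and high density, and Hist3h2ba 42.9 and 123 TPM. Only in these 2 did both high density libraries lie above both low density ones. Hist1h1c, Hist1h2bc and Hist2h2be overlapped, and Hist4h4 lay below. Of the 6 listed genes, all tested, 1 rose (Hist3h2ba), none fell and 5 had a log2 fold change above 0, with a median of 0.29. Without high density library 1 that median was -0.14, with 3 of the 6 above 0, and without low density library 2 it was 0.13. Of the other members, 49 were tested, none rose, 5 fell and 43 lay below 0 (87.8%), with a median of -0.57. The list was drawn up with earlier results of these data known, and the difference between both sets was not tested.

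Hist2h2be, an H2B gene on the list, stood at 34.4 and 28.8 TPM at low density and 49.4 and 25.6 TPM at high density, which overlapped. Hist4h4, the only gene of the fourth cluster, was the exception on the list, at 2.51 and 3.46 TPM at low density and 1.07 and 0.563 TPM at high density. Its log2 fold change was -1.14 ± 0.40 (SE; limma adjusted p = 0.113). All 3 rows of the Hist3 cluster lay above 0 (2 of 3 without low density library 2). Their sum was 134 and 83.6 TPM at low density and 188 and 279 TPM at high density. One of these rows, Hist3h2bb-ps, is a pseudogene by its symbol, and its groups overlapped (log2 fold change 0.18). Of the 6 tested genes of the Hist2 cluster, 2 fell (33.3%, against 2.11% of all tested rows). Below 0 lay 5 (83.3%, against 40.3% of all tested rows), with a median of -1.57. These values rest on low density library 1, where the cluster's 10 rows summed to 119 TPM, against 50.3, 61.5 and 41.6 TPM in low density library 2 and the high density libraries. Without it the median was -0.51, 4 of the 6 lay below 0 and neither Hist2h2ac nor Hist2h2bb was called. The Hist1 cluster had 45 tested genes, of which 3 fell (6.67%) and 38 lay below 0 (84.4%). Over all tested rows these shares were 2.11% and 40.3%.

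**Figure D4:**
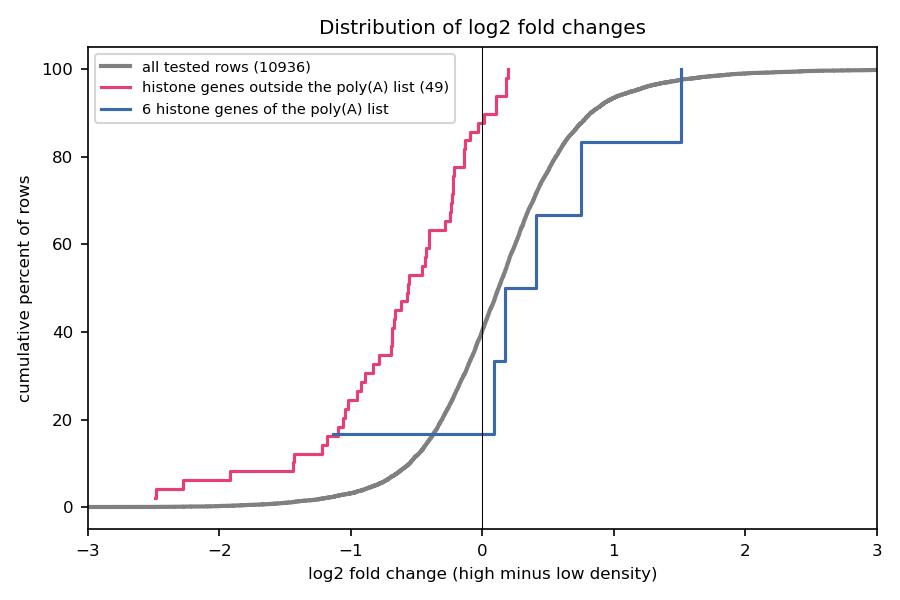
Cumulative percent of rows by log2 fold change, high minus low density, for all 10936 tested rows, the 49 tested histone genes outside the poly(A) list and the 6 genes on it. The axis runs from -3 to 3, so a few rows of the whole table lie outside it. The curve of the 49 genes lies to the left of that of all rows, and 5 of the 6 listed genes lie to the right of 0.

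The labels do not say whether polyadenylated RNA was selected. Other RNAs known to lack a poly(A) tail were read beside the histone genes. Rpph1, the RNA of RNase P, stood at 217 and 94.7 TPM at low density and 1.93 and 3.55 TPM at high density, and fell by 5.31 on the log2 scale (limma adjusted p = 5.03e-05). Rmrp, the RNA of RNase MRP, stood at 58.7 and 3.15 TPM and then at 1.14 and 0 TPM, and fell by 3.43 (limma adjusted p = 0.0442). Without low density library 1 the log2 fold change of Rmrp was -1.51 (adjusted p = 0.278), and without high density library 2 it was -2.88 (adjusted p = 0.0681). Terc, the telomerase RNA, at 3.37 and 3.46 TPM and then 0.395 and 1.04 TPM, did not pass the test (limma adjusted p = 0.06). Malat1, whose long nuclear RNA ends in a triple helix, was above both low density libraries at high density, at 255 and 114 TPM and then 523 and 303 TPM (limma adjusted p = 0.068). Of 16 RNAs on this list, 11 were rows of the table, 5 were tested and 2 fell. The part of the share of untailed RNA in the histone values was not tested.

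Gene models also differed in what lies beyond the stem-loop, which matters for TPM levels because a longer model divides the same reads by more bases. A length that is the same in every library bears little on the log2 fold change of a gene. In 22 members the model ran on for more than 100 bases past the stem-loop, and in 22 it stopped within 100 bases. The 19 tested members with long models had a median log2 fold change of -0.29, with 1 called higher (Hist3h2ba, of the poly(A) list) and none lower. The 16 tested members with short models had a median of -0.62, with 3 called lower and none higher, and 15 of them lay below 0. The other 24 members had no match, and the 20 of them that were tested had a median of -0.61, with 2 called lower. These differences were not tested. Hist3h2ba had 169 bases after its stem-loop, with the polyadenylation signal AATAAA among them. The models of Hist1h2bm, Hist1h4b and Hist2h2ac ended 46, 28 and 57 bases after it. These models are of another build than the mm9 build named by the submitters, and the lengths behind the TPM are not known.

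Near-identical copies limit what single rows can say. In 33 members at least 50% of all 50-base windows of the model also occurred in another gene, so reads could have been split or moved between them. Among the called members this share was 90.7% for Hist1h2ah, 54.6% for Hist1h4b, 53.6% for Hist2h2bb, 43.8% for Hist1h2bm, 38.6% for Hist2h2ac and 22.1% for Hist3h2ba. The value of Hist1h2ah is therefore uncertain, since 87.4% of its windows also lie in Hist1h2ad. For Hist1h4i the share was 28.9%. Among rows listed at 0 in every library, it was 100% for Hist2h3c1, 93.5% for Hist1h2ao and 93.1% for Hist1h2ap. It was 89.8% for Hist1h4m, 89.4% for Hist2h2aa1, 63.5% for Hist2h3c2, 2.35% for Hist1h2aa and 0% for Hist1h1t. Whether reads of such rows were discarded or given to copies is not known. The 23 tested members with shared sequence in at least 50% of windows had a median log2 fold change of -0.69, and the 32 others had one of -0.27, with 24 of the 32 below 0.

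Many H2A and H2B genes lie head to head and share the stretch between their starts. Within 500 bases 12 such pairs were found, each of 1 H2A and 1 H2B row. The H2B row that faces Hist3h2a is Hist3h2bb-ps, a pseudogene by its symbol. In 9 pairs both genes were tested. The log2 fold changes had the same sign in 6 of the 9 and were both below 0 in 5. Since 80% of all tested members lay below 0, unrelated members would often share a sign too. The count is therefore not read as agreement within pairs. Hist1h2ah, which fell, faces Hist1h2bk across 301 bases, and Hist1h2bk stood at 18.7 and 26.0 TPM at low density and 25.1 and 14.0 TPM at high density (log2 fold change -0.22). Hist2h2ac, which also fell, faces Hist2h2be across 238 bases, with log2 fold changes of -1.92 and 0.17. Both partners in these pairs overlapped between densities, and the differences within pairs were not tested. Hist1h2ag and Hist1h2bj, an abundant pair across 269 bases, lay at -0.69 and -0.43.

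**Figure D5:**
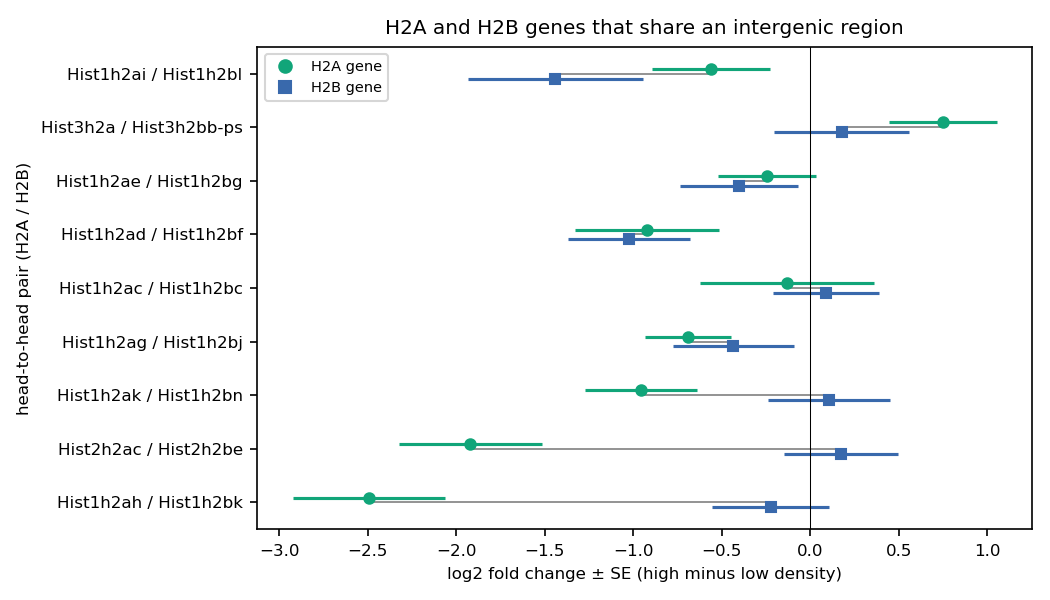
Log2 fold change, high minus low density, of the 9 head-to-head pairs in which both genes were tested, with bars of 1 standard error from limma. Circles are H2A genes and squares H2B genes. Hist1h2ah and Hist2h2ac lie far below their partners.

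Promoters were read for 61 of the 68 members, from 250 bases before to 50 bases after the start, as given by RefSeq for GRCm38.p6. No entry was matched for Hist1h2al, Hist1h2bc, Hist1h3a, Hist1h3f, Hist2h2be, Hist2h4 and Hist3h2bb-ps. Below are those of a member that fell, the member that rose and the most abundant member. Capitals mark the letters of the TATA box (TATAAA), the CCAAT box (CCAAT) and the octamer (ATTTGCAT). Each was searched on both strands and counted separately, overlaps included. Matches were taken at any position, so a marked TATAAA need not be a TATA box. In the Hist1h4i window TATAAA lies far from the start.
Hist1h2ah (chr13:22035594-22035893, minus strand): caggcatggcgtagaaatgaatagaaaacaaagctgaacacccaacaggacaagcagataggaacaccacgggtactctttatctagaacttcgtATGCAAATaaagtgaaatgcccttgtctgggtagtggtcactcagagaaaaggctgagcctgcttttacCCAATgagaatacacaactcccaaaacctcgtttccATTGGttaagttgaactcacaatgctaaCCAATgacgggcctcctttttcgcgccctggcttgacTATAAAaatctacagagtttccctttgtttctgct
Hist3h2ba (chr11:58948661-58948960, plus strand): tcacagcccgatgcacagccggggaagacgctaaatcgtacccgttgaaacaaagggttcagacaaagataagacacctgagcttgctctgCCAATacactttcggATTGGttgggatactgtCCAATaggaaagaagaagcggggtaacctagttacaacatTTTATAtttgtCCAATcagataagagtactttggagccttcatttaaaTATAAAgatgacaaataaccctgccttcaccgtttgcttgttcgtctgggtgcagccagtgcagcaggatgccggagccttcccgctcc
Hist1h4i (chr13:22041313-22041612, minus strand): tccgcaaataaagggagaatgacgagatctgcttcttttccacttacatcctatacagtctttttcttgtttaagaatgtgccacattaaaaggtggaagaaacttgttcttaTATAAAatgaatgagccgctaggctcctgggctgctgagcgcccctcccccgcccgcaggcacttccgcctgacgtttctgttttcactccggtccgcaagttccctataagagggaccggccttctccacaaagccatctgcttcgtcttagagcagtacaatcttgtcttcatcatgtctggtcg
The octamer is the site bound by Oct-1, the product of Pou2f1, and stands in the Hist1h2ah window only among these 3. CCAAT occurred in 85.2% of the 61 promoters and in 37.4% of 32851 promoters of the same length. It was in every matched promoter of H1, H2A, H2B and H3, but in 3 of 12 of H4 (25.0%). TATAAA occurred in 57.4% of member promoters and in 13.6% of all promoters. The octamer was in 7 of 18 H2A and 7 of 15 H2B promoters, in none of H1, H3 or H4, and in 1.74% of all promoters. Windows of head-to-head genes overlap, so a single site can be counted for both genes. The octamer in the Hist1h2ah window, for example, also lies in that of its partner Hist1h2bk. Counts of CCAAT and TATAAA share this limit, so these are counts of promoters and not of separate sites. The H1 box AAACACA was in 5 of 6 H1 promoters and in 7.18% of all promoters. The 12 tested members with the octamer had a median log2 fold change of -0.32, and the 37 tested members without it had one of -0.62. The latter include all tested H1, H3 and H4 members with a matched promoter. Within H2A the medians were -0.19 with the octamer and -0.78 without it, and within H2B -0.42 and -0.73. Of the members that fell, Hist1h2ah, Hist2h2ac, Hist2h2bb and Hist1h2bm held the octamer and Hist1h4b did not. These differences were not tested. These matches describe letters in a window and say nothing of binding.

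Factors that make and remove histone messages were read from lists of known genes. Of 10 genes for histone gene transcription, none was called and the median log2 fold change was 0.34. Above 0 lay 7 (70%, against 59.7% of all tested rows). Npat, the coactivator of histone genes at S phase entry, stood at 24.0 and 22.7 TPM at low density and 33.5 and 39.8 TPM at high density. Both high density libraries were above both others, but the log2 fold change of 0.62 did not pass the test (limma adjusted p = 0.179). Hinfp, the factor that acts on H4 promoters, stood at 0.41 (limma adjusted p = 0.363), Pou2f1 at 0.57 (limma adjusted p = 0.241) and Yy1 at 0.72 (limma adjusted p = 0.0891). Casp8ap2, a protein of the histone locus body, had a log2 fold change of 0.27, with overlapping groups.

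Of 22 genes for 3′ end processing, 2 fell (9.09%, against 2.11% of all tested rows), none rose and the median was -0.19. Slbp, whose protein binds the stem-loop, stood at 208 and 209 TPM at low density and 191 and 241 TPM at high density. The high density libraries lay on either side of the low density ones (log2 fold change 0.04, limma adjusted p = 0.94, and -0.15 with median centring). Ncbp2, the small subunit of the nuclear cap-binding complex, stood at 156 and 158 TPM and then at 67.6 and 76.9 TPM, and fell by 1.11 (limma adjusted p = 0.0168). Snrpd3, an Sm protein of spliceosomal and U7 snRNPs, fell by 0.94 (limma adjusted p = 0.0278). Srrt (-0.71, limma adjusted p = 0.0819) and Lsm11 (0.58, limma adjusted p = 0.277), the latter a protein of the U7 snRNP, did not pass the test.

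Of 18 genes for histone mRNA decay, 1 rose and 1 fell (5.56% each, against 4.57% and 2.11% of all tested rows). Tut4, a terminal uridylyltransferase, rose from 3.00 and 2.54 TPM to 9.04 and 9.40 TPM (limma adjusted p = 0.0251). Lsm2 of the LSM1-7 ring fell by 0.97 (limma adjusted p = 0.0294), Lsm6 of the same ring did not pass the test (-0.74, limma adjusted p = 0.109), and the median of the list was 0.05. Of 26 histone chaperone and import genes, 1 fell (3.85%, against 2.11% of all tested rows) and the median was -0.20. The gene that fell was the importin Ipo4 (-1.20, limma adjusted p = 0.0284). Hjurp (0.88, limma adjusted p = 0.135) and Hirip3 (-0.61, limma adjusted p = 0.145) did not pass the test. Without low density library 1 or without low density library 2, no gene of these lists, the S phase list or the replacement list was called.

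Of 48 S phase genes, 1 fell (2.08%, against 2.11% of all tested rows). Below 0 lay 36 (75%, against 40.3% of all tested rows), and the median was -0.25. The gene called was Ung, a uracil-DNA glycosylase, at 102 and 96.6 TPM at low density and 50.3 and 41.0 TPM at high density, which fell by 1.11 (limma adjusted p = 0.0209). Mcm2, a subunit of the replicative helicase, stood at 341 and 308 TPM and then at 184 and 187 TPM (limma adjusted p = 0.0528). Msh6, a mismatch repair gene, lay the other way at 0.93 (limma adjusted p = 0.0554).

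Many replacement histones are made throughout the cell cycle from polyadenylated messages, and a list of replacement histones served for comparison. Of 11 listed, 9 were tested, none was called and the median log2 fold change was 0.00. Their sum was 4303 and 4403 TPM at low density and 4883 and 5642 TPM at high density. In every library it was listed above the sum of the 68 clustered members. Any selection of polyadenylated RNA, the lengths behind the TPM and the handling of shared reads are unknown. Both sums therefore do not rank the true amounts of these messages. H3f3b, a gene of H3.3, stood at 1417 and 1407 TPM at low density and 1787 and 3173 TPM at high density (log2 fold change 0.75, limma adjusted p = 0.126). H1f0 had a log2 fold change of 1.25 (limma adjusted p = 0.0984) and H2afz one of -0.58 (limma adjusted p = 0.167). H2afx, which holds the stem-loop pattern, stood at 713 and 536 TPM at low density and 517 and 294 TPM at high density (log2 fold change -0.66, limma adjusted p = 0.189).

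The labelled cell type was checked on its markers. All 8 T cell markers were tested, 1 of them fell (Rag1, of the recombinase that joins receptor gene segments, by 1.56, limma adjusted p = 0.00283), and the list had sums of 7003 and 6481 TPM at low density and 6531 and 6046 TPM at high density. The B cell markers Cd79b and Ms4a1 and the myeloid markers Lyz2 and Cd14 were listed at 0 in every library, as were the red cell genes Hbb-b1 and Hba-a1 and the epithelial gene Epcam. The B cell list summed to between 0.235 and 1.29 TPM and the myeloid list to 8.48 and 6.62 TPM at low density and 16.1 and 12.1 TPM at high density. Nearly all of the latter was Itgam, an integrin gene of myeloid cells that some lymphocytes also express, at 8.27 and 6.62 TPM and then at 16.1 and 12.1 TPM. Its high density libraries lay above both low density ones (log2 fold change 0.83), which did not pass the test (limma adjusted p = 0.134), and its part in the histone values was not tested. The 4 stromal and epithelial markers summed to 107 and 52.1 TPM at low density and 48.2 and 37.9 TPM at high density, with Pecam1 the largest part in each library.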

How the data were processed

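RNA of 4 libraries of the BEKO line was read from a single table deposited by the authors, in TPM, with 25630 rows and each library summing to 1000000. Strand-specific libraries were made from column-purified RNA, per the labels' protocols, and the molecule is given as total RNA. The submitters' processing notes name the build mm9 and DESeq2 1.2.10 without a role. Aligner, counter, annotation and any selection of polyadenylated RNA: not given in the sources used here. TPM keeps no depth, so reads per library are unknown and no counting interval is given. Since TPM is relative, more of an abundant RNA lowers the values of others.

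Columns were tied to samples by the column names in the sample descriptions. Values were tested as log2(TPM + 1), a scale that understates changes of weak genes, with limma 3.58.1 in R 4.3.3 (group term, moderated variances with a trend, two-sided). The 10936 rows averaging 1 TPM or more were tested, with Benjamini-Hochberg adjustment over all of them and a threshold of 0.05. The model had 2 residual degrees of freedom, to which moderation added 9.53. The script was tested on simulated data. The histone genes and all other lists were chosen with earlier results of these data known. Genes named in the text were, in each class, the 3 most abundant and those with the largest and smallest change, all called members, all H1 subtypes, Hist3h2a, Hist4h4, the 3 of smallest p in each list and 5 regulators set by name. Hist1h2bk, Hist2h2be, H2afx, Malat1, Hist2h2ab and Hist1h3g were named after their values were seen.

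Gene models for stem-loops and shared sequence came from GENCODE M21 and promoters from RefSeq, both of GRCm38. Gene models were matched by symbol, promoters by the Entrez gene identifier of those models, and list genes by symbol or synonym. Alternatives were another pseudocount, other filters, median centring, quantile normalisation, rescaling without the histone rows, no variance trend, a replicate block and leaving out each library. Whether replicate numbers pair the libraries is not known, so the replicate block was kept as an alternative.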

Additional observations from a re-analysis of the deposited data

How the results depend on the processing

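Main values for the clustered histone genes were 1 called higher and 5 lower, for all tested rows 500 and 231, and for the histone production lists 1 and 5, each with limma. With no filter on low values 0 were called higher and 0 lower in all 3 sets. Median centring gave 3 lower histone genes, 160 higher rows in all, and 0 higher and 3 lower list genes. Quantile normalisation gave 3 lower histone genes, 216 higher and 144 lower rows, and 0 higher and 2 lower list genes. The median log2 fold change of all tested rows, 0.12, became -0.063 with centring and -0.012 with quantile normalisation, and 51 and 50 of the 55 histone genes then lay below 0. Without the variance trend 3 histone genes, 144 rows and 2 list genes were called lower, and with a filter of at least 5 TPM 3 list genes were called higher. No label says whether equal replicate numbers mark paired libraries. The deviations of library 1 from its group mean were compared between low and high density. Their correlation was r = 0.0416 across 10936 rows, which are not independent, and -0.268 across the 55 histone genes. With a single such difference per density, these values cannot show whether the libraries are paired. The replicate block gave 8 lower histone genes and 4 higher list genes. Leaving out each library in turn gave 0 to 2 higher and 1 to 25 lower histone genes, 99 to 2873 higher and 69 to 1271 lower rows, 0 to 22 higher and 0 to 30 lower list genes, and a summed H1 ratio of 0.949 to 1.51. Leaving libraries out of the medians of classes and clusters, and of sums without 1 gene, was chosen after seeing the data. The fewest lower histone genes came without low density library 1 and the most without high density library 1. Over all rows, lower calls were also fewest in the former fit, and higher calls were most frequent in the latter. Lower calls over all rows peaked with high density library 2 left out. Signs of small log2 fold changes turned in some of these fits. Hist1h1e became -0.0059 with centring and -0.0077 with quantile normalisation, Hist1h2bc became -0.098 and -0.087, and Slbp became -0.15 with centring. With a library left out, values ran from -0.17 to 0.70 for Casp8ap2, -0.68 to 0.24 for Hist1h1a, -0.47 to 0.41 for Hist1h1b, -0.90 to 0.33 for Hist1h1d, -0.35 to 0.71 for Hist1h1e, -0.51 to 0.020 for Hist1h2ae, -0.29 to 0.47 for Hist1h2bc, -0.96 to 0.095 for Hist1h2bj, -0.46 to 0.026 for Hist1h3a, -0.53 to 0.35 for Hist1h4h and -0.13 to 0.21 for Slbp. With a pseudocount of 0.1, and with rescaling without the histone rows, all 50 named genes kept their direction and their side of the threshold. Fewer libraries or rows change both the variances and the adjustment, and the cause of each change was not tested. The depth behind the TPM is unknown, so limits of detection cannot be given.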

Other observations

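Replicates of clustered histone genes were further apart than those of other rows at low density. The pooled standard deviation of log2(TPM + 1) over the 55 tested members was 0.582 at low density and 0.491 at high density, and over all 10936 tested rows it was 0.28 and 0.433. Low density library 1 was above low density library 2 in 35 of the 55 members and in 7623 of the 10936 rows tested in all. High density library 1 was above high density library 2 in 36 of the 55 members, and in 3150 of the 10936 rows. These differences were not tested.

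Hist2h2ab, an H2A gene of the Hist2 cluster, stood at 24.1 TPM in low density library 1, at 0.990 TPM in low density library 2 and at 0 and 1.13 TPM at high density. A single library thus carried most of its level, and its log2 fold change of -2.28 ± 0.88 (SE) did not pass the test (limma adjusted p = 0.144). Hist1h3g of class H3, at 22.4 and 17.5 TPM at low density and 7.96 and 10.4 TPM at high density, missed the threshold (log2 fold change -1.04, limma adjusted p = 0.0623). It was called with a filter of at least 5 TPM (adjusted p = 0.0482), with median centring (0.0463) and with quantile normalisation (0.0387).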
